A study of Mus musculus with 6 samples.

Results

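The genes described here are 10 members of the NF-kappaB system: the transcription factor subunits Nfkb1, Nfkb2, Rela and Relb, the inhibitors Nfkbia and Tnfaip3, the adhesion molecules Icam1 and Vcam1, and the chemokines Ccl2 and Ccl7. They were taken by gene symbol, and each matched 1 row of the 27734 genes in the table. RNA sequencing was done on chondrocytes, the cells that make cartilage, freshly isolated by enzymatic digestion from mouse ribs at E18.5, shortly before birth. One group was wild type (3 libraries, WT). The other was Jab1flox/flox; Col2a1-Cre (3 libraries, Mut), a conditional knockout in which Cre recombinase driven by the cartilage collagen promoter Col2a1 removes floxed Jab1. Whether the wild-type embryos carried a floxed allele or Cre is not given in the labels. Deletion is directed at cells that express Col2a1, so other cells in the digest would keep the gene. Libraries are named by the number of their column, 0, 1 or 2.

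NF-kappaB proteins are dimers of Rel family subunits that wait in the cytoplasm, bound by inhibitors such as the product of Nfkbia. Signals from tumor necrosis factor, interleukin-1 or Toll-like receptors activate a kinase that marks the inhibitor for ubiquitination by a cullin ligase and destruction, and the freed dimers enter the nucleus. Nfkbia and Tnfaip3 are themselves targets, so the pathway writes its own brakes. In cartilage it is best known for driving matrix-degrading enzymes, chemokines and adhesion molecules in inflamed joints, and it also takes part in growth plate development. Cops5 encodes Jab1, the catalytic part of the COP9 signalosome, which strips the ubiquitin-like protein Nedd8 from cullins, which include the cullin that acts on the NF-kappaB inhibitor.

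Levels are in FPKM, a fragment count divided by gene length and by the mapped fragments of the library. This scale allows for gene length, so levels of different genes can be set side by side. Column totals ran from 571180 to 631534 FPKM. The read depth behind a value is unknown. Cops5 measured 39.8 to 42.3 FPKM in WT and 17.0 to 18.0 FPKM in Mut libraries (limma adjusted p = 6.5e-04). Among 12 of 15 chondrocyte marker genes analysed here, the summed level was 9625 to 11162 FPKM in WT libraries. It was 10781, 6828 and 6597 FPKM in Mut columns 0, 1 and 2, so the labelled cell type was present in all 6. Mut column 0 was within the WT range, and Mut columns 1 and 2 were below every WT library. The libraries also differed in ways the labels do not describe. Summed over 4 Y-linked genes, the level was 0.0281 to 0.639 FPKM in WT and 14.6, 82.8 and 71.7 FPKM in Mut columns 0, 1 and 2. Every Mut library was above every WT library, so embryo sex and genotype cannot be told apart in the comparisons below. Blood cell markers were lower in Mut, with 4 of 4 tested erythroid and 3 of 4 tested granulocyte genes falling (limma adjusted p under 0.05). Of 7 tested skeletal muscle genes 1 fell, Tnnt3, and 6 did not pass. Of 9 fibroblast and perichondrium genes 2 fell and 1 rose. Of 12 chondrocyte genes 2 fell, and 0 of 10 macrophage and pan-leukocyte genes passed. Over all genes tested, 2.59% fell and 3.48% rose. In such bulk samples fewer cells of a type and less RNA per cell cannot be told apart. WT column 0 has day 30 in its title, and the other columns matched to a title have day 24.

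Icam1 was the member that rose in the Mut libraries. Nfkb1, Relb and Nfkbia were also higher in every Mut library than in any WT library, by 1.24 to 1.68-fold, but missed the adjusted threshold. Rela and Nfkb2, the other 2 subunits, showed overlapping groups, as did Tnfaip3, Vcam1, Ccl2 and Ccl7. The test was limma on log2(FPKM + 1), with genes of at least 1 FPKM on average; "rose" and "fell" stand for an adjusted p under 0.05 over all genes tested. Of the 10 members 8 entered it, while Vcam1 and Ccl7 were under the minimum. Of the 8, 1 passed, beside 6.07% of the 14012 genes tested. It rose, as did 3.48% of those genes, and 0 members fell (2.59%). At an unadjusted p under 0.05, 4 were higher (12.7% of all genes tested) and 0 lower (12.0%). In 4 of the 8 the groups did not overlap with Mut higher (16.3% of all genes tested), and in 0 with Mut lower (15.9%). Their median log2 fold change was 0.21, beside -0.0039 over all genes tested. With 8 genes these counts describe the members and do not set them apart from other genes.

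**Figure D1:**
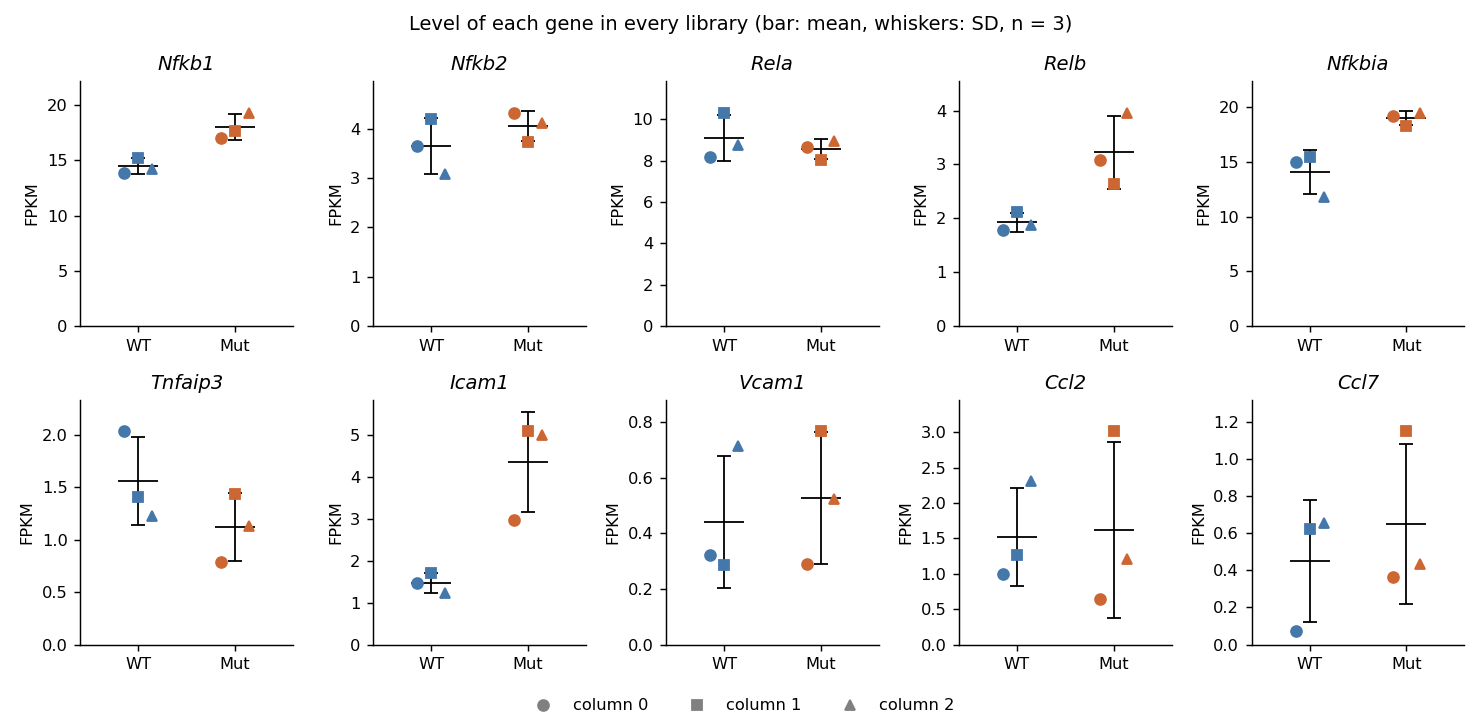
FPKM of each of the 10 genes (y axes, linear from 0) in the 3 WT and 3 Mut libraries. Symbols give the column number, bars the mean and whiskers the SD. For Nfkb1, Relb, Nfkbia and Icam1 all Mut points lie above all WT points, and the other 6 panels overlap.

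Among the DNA-binding subunits, Nfkb1 was the most abundant. It encodes p105, the precursor of p50, which lacks an activation domain of its own. Nfkb1 (chromosome 3, 135584655 to 135691547, mm10) measured 13.8, 15.3 and 14.3 FPKM in WT and 17.0, 17.6 and 19.3 FPKM in Mut columns 0, 1 and 2. All 3 Mut libraries lay above the highest WT library. Means were 14.5 ± 0.730 and 18.0 ± 1.18 FPKM (SD, n = 3). The difference was 0.30 in log2 (SE 0.0744, limma adjusted p = 0.078). Its partner Rela, the p65 subunit that carries the main activation domain, was spread the other way. Rela (chromosome 19, 5637483 to 5648130) measured 8.17, 10.3 and 8.77 FPKM in WT and 8.68, 8.03 and 8.96 FPKM in Mut columns. The highest and the lowest of these values lie in column 1 of the 2 groups, and the rest are close together. The log2 fold change of Rela was -0.07 (95% interval -0.32 to 0.17, limma adjusted p = 0.68), an interval that includes 0 and reaches further down than up.

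Relb and Nfkb2 encode the subunits of the non-canonical arm, in which p100 is processed to p52 and pairs with RelB. Relb (chromosome 7, 19606217 to 19629438) measured 1.78, 2.11 and 1.87 FPKM in WT and 3.09, 2.63 and 3.96 FPKM in Mut columns 0, 1 and 2. All 3 Mut values lie above WT, with a wider spread among them. The mean went from 1.92 ± 0.171 to 3.23 ± 0.673 FPKM (SD, n = 3), or 0.52 in log2 (SE 0.144, limma adjusted p = 0.097). Nfkb2 (chromosome 19, 46304320 to 46312385) measured 3.66, 4.21 and 3.09 FPKM in WT and 4.33, 3.74 and 4.12 FPKM in Mut columns. Its groups overlapped, and only Mut column 0 was above every WT library. Its log2 fold change was 0.13 (95% interval -0.16 to 0.41, limma adjusted p = 0.54). Rel, the fifth subunit, was at 0.911 to 1.07 FPKM in WT and 0.729 to 0.974 FPKM in Mut libraries and was under the minimum for testing.

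Ratios between members within a library do not depend on how the libraries were scaled, and were not tested. Nfkb1 stood at 1.69, 1.48 and 1.63 times Rela in WT and at 1.96, 2.19 and 2.15 times Rela in Mut columns 0, 1 and 2. For Relb the ratio to Rela was 0.218, 0.205 and 0.213 in WT and 0.356, 0.328 and 0.442 in Mut. The 3 WT ratios of Relb to Rela were close together (SD 0.00673). Nfkb2 to Rela was 0.448, 0.408 and 0.352 in WT and 0.498, 0.466 and 0.460 in Mut, and these groups also did not overlap, although those of Nfkb2 alone did. Of the summed FPKM of the 5 subunits, Nfkb1 held 46.3 to 49.3% in WT and 49.9 to 53.8% in Mut, Rela 28.8 to 31.3% and 24.2 to 25.5%, and Relb 6.29 to 6.46% and 8.04 to 10.7%. Rel held 3.21 to 3.27% in WT and 2.06 to 2.86% in Mut, and Nfkb2 10.7 to 12.9% and 11.1 to 12.7%. The sum itself overlapped between groups, at 28.4 to 33.0 FPKM in WT and 32.7 to 37.1 FPKM in Mut. The shares of Rela, Nfkb1, Relb and Rel separated the groups, while that of Nfkb2 and the total did not. Shares of one sum, and ratios over the same Rela values, depend on each other. Of single genes tested, 16.3% separated the groups with Mut higher and 15.9% with Mut lower. How often ratios or shares of other genes separate was not counted.

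**Figure D2:**
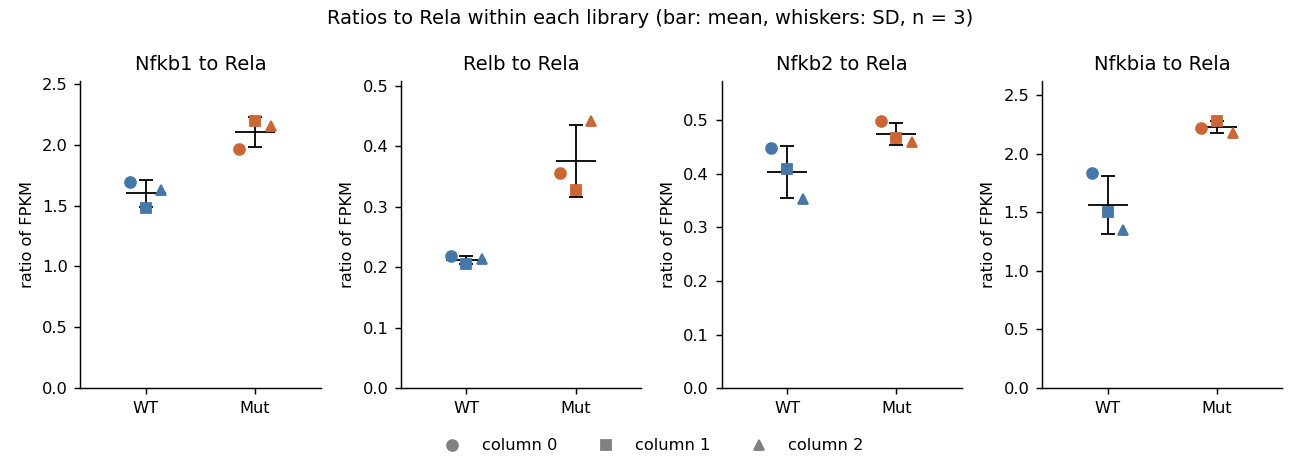
Ratio of the FPKM of Nfkb1, Relb, Nfkb2 and Nfkbia to that of Rela (y axes, linear from 0) in each WT and Mut library, with mean and SD. In all 4 panels the 3 Mut ratios lie above the 3 WT ratios, by the widest relative margin for Relb (0.328 or more against 0.218 or less).

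Nfkbia encodes IkappaB-alpha, which holds dimers in the cytoplasm and is resynthesised when they act. Nfkbia (chromosome 12, 55489410 to 55492647) measured 15.0, 15.5 and 11.8 FPKM in WT and 19.2, 18.3 and 19.5 FPKM in Mut columns 0, 1 and 2. Every Mut library was above every WT library, and WT column 2 was the lowest of all. The mean went from 14.1 ± 1.98 to 19.0 ± 0.639 FPKM (SD, n = 3), which is 0.41 in log2 (SE 0.110, limma adjusted p = 0.090). Tnfaip3 encodes A20, a ubiquitin-editing enzyme that shuts the signal off upstream. Tnfaip3 (chromosome 10, 19000910 to 19015657) measured 2.04, 1.41 and 1.23 FPKM in WT and 0.791, 1.44 and 1.14 FPKM in Mut columns. Its groups overlapped, with the extremes both in column 0. The log2 fold change was -0.27 (95% interval -0.75 to 0.22, limma adjusted p = 0.45), the most negative of the 8 tested members. The ratio of Nfkbia to Tnfaip3 was 7.36, 11.0 and 9.62 in WT and 24.3, 12.7 and 17.2 in Mut columns, without overlap.

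Promoters of these feedback genes and of Icam1 hold letters of the kappaB type, and 3 are shown to set the same letters beside genes with different values. The search was for GGNNNTTCC on both strands (GGAANNNCC read on the other), letters chosen after these windows had been read. Each also contains GGAA on one strand, the core bound by ETS factors. Windows of 300 bases, from 250 before to 50 after the start, came from RefSeq on GRCm38.p6 for 5 of the 10 members (Icam1, Tnfaip3, Nfkbia, Rela and Nfkb2). Matches, in capitals below, begin 153 and 84 bases before the start in Icam1 (chr9:21015690-21015939, + strand), 211, 178 and 29 bases before it in Nfkbia (chr12:55492648-55492897, - strand), and 24 and 12 bases before it in Tnfaip3 (chr10:19015407-19015436, - strand, 30 bases shown). That Tnfaip3 window also holds a match after the start, not shown.
Icam1: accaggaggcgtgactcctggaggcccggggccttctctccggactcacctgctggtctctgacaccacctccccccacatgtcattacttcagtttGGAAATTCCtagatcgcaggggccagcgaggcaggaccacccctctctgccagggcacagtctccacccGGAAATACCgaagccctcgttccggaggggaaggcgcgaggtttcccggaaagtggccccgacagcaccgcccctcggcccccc
Nfkbia: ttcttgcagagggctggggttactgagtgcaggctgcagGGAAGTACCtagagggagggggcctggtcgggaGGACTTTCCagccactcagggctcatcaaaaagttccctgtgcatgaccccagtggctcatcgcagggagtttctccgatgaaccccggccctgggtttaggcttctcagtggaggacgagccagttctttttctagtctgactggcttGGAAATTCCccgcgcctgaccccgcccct
Tnfaip3: ctGGAATTTCCatcGGAAATCCCcctgttg
Of all 32851 promoter windows 6070 held at least 1 match and 708 (2.16%) at least 2. The Rela window held 0, and each of the 3 Nfkb2 windows at least 1. Icam1 and Nfkbia both hold GGAAATTCC. Icam1 rose, Nfkbia did not pass and Tnfaip3 had overlapping groups, and a match describes the letters of a window only.

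Icam1 encodes a ligand of leukocyte integrins that is present at a low level on resting mesenchymal and endothelial cells. Icam1 (chromosome 9, 21015985 to 21028817) measured 1.46, 1.70 and 1.22 FPKM in WT and 2.97, 5.08 and 5.0 FPKM in Mut columns 0, 1 and 2. Mut column 0 sat between the WT libraries and the other Mut libraries, above every WT value. The mean rose 2.98-fold, from 1.46 ± 0.241 to 4.35 ± 1.20 FPKM (SD, n = 3), or 1.10 in log2 (SE 0.200, 95% interval 0.61 to 1.59, limma adjusted p = 0.039). The call rested on all libraries but 1. Without WT columns 0, 1 and 2 the limma adjusted p was 0.12, 0.10 and 0.13 and without Mut columns 1 and 2 it was 0.10 and 0.12, with a log2 fold change of 0.99 to 1.17. Without Mut column 0 the gene still passed (log2 fold change 1.30, limma adjusted p = 0.019). Without the filter on low values the limma adjusted p was 0.073. The ratio of Icam1 to Nfkbia was 0.0976 to 0.110 in WT and 0.154 to 0.278 in Mut libraries. It rests on the same Icam1 values as the call and adds no separate support to it.

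Endothelial cells also express Icam1, and their summed markers, like Icam1, were lowest in column 0 among the Mut libraries. Summed over 10 endothelial markers the level was 8.74, 11.9 and 11.0 FPKM in WT and 5.63, 20.0 and 21.0 FPKM in Mut columns 0, 1 and 2. Pecam1, a defining marker, was at 1.12 to 1.73 FPKM in WT and at 0.475, 3.38 and 3.37 FPKM in Mut columns. The 10 markers did not all share this pattern. In Mut column 0, 7 were below every WT library, Tek and Esam were within the WT range, and Vwf, at 0.696 FPKM, was above it (0.486 to 0.519 FPKM). In the same library the endothelial sum was below, and Icam1 above, every WT library. None of the 4 tested endothelial markers passed in limma, with 0 at an unadjusted p under 0.05, and none of the 10 was at 0 in all libraries. Summed chondrocyte markers were at 10781 FPKM in Mut column 0 and at 6828 and 6597 FPKM in Mut columns 1 and 2, where Icam1 was highest. The part of endothelial cells or of chondrocytes in the level of Icam1 was not tested. The Y-linked sum was also lowest in column 0 among the Mut libraries. When the Y-linked level was added to the fit, the log2 fold change of Icam1 was 0.17 (SE 0.312, limma adjusted p = 0.80). The SE without it was 0.200. Because the Y-linked level was higher in every Mut library than in any WT library, this fit cannot tell embryo sex from genotype. The part of embryo sex was not tested. Summed over 14 macrophage and pan-leukocyte markers the level was 56.7, 50.5 and 109 FPKM in WT and 18.3, 32.5 and 69.9 FPKM in Mut columns, with overlapping groups. Over 8 granulocyte markers the sum was 74.0 to 210 FPKM in WT and 1.07 to 7.04 FPKM in Mut libraries.

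**Figure D3:**
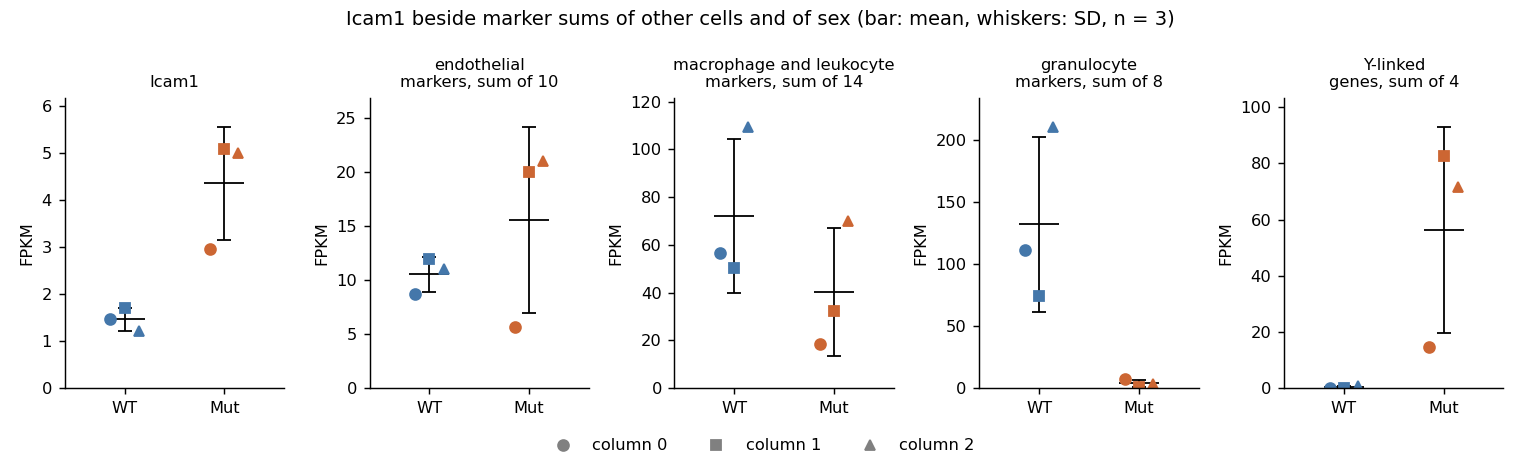
Icam1 and the summed FPKM of endothelial, macrophage and pan-leukocyte, granulocyte and Y-linked genes (y axes, linear from 0) in each WT and Mut library, with mean and SD. Mut column 0 is the lowest Mut library for Icam1 (2.97 FPKM), the endothelial sum (5.63 FPKM), the macrophage and pan-leukocyte sum (18.3 FPKM) and the Y-linked sum (14.6 FPKM), and granulocyte markers are at 7.04 FPKM or less in all 3 Mut libraries.

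Genes whose levels followed Icam1 most closely were found by the root mean square difference of log2(FPKM + 1), each minus its WT mean, over the 6 libraries. The 3 nearest were Tm4sf1, Gna14 and Tinagl1, at differences of 0.076, 0.091 and 0.093. Tm4sf1, a tetraspanin-like surface protein, measured 1.39, 1.57 and 0.924 FPKM in WT and 2.46, 4.60 and 4.18 FPKM in Mut columns 0, 1 and 2. Gna14, a G protein subunit, measured 0.474, 0.589 and 0.406 FPKM in WT and 1.38, 3.03 and 3.08 FPKM in Mut columns. Tinagl1, a secreted matrix protein, measured 1.98, 2.22 and 1.41 FPKM in WT and 3.92, 5.31 and 5.75 FPKM in Mut columns. Their likeness to Icam1 in these libraries, and so their place near the threshold, is what chose them. Tinagl1 passed limma (adjusted p = 0.031), but not without WT column 0, 1 or 2 or Mut column 1 or 2 (adjusted p 0.081 to 0.10), and Tm4sf1 and Gna14 did not (adjusted p = 0.058 and 0.053).

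Vcam1 encodes the other adhesion molecule, a ligand of integrin alpha-4 beta-1. Vcam1 (chromosome 3, 116109949 to 116129688) measured 0.322, 0.287 and 0.714 FPKM in WT and 0.291, 0.767 and 0.525 FPKM in Mut columns 0, 1 and 2. Both groups covered nearly the same range at a level below the minimum for testing. In a fit without that minimum its log2 fold change was 0.08 (95% interval -0.33 to 0.49, limma adjusted p = 0.82). The ratio of Icam1 to Vcam1 was 1.71 to 5.94 in WT and 6.63 to 10.2 in Mut libraries.

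Ccl2 and Ccl7 encode the monocyte chemoattractants MCP-1 and MCP-3, and their genes lie 8258 bases apart on chromosome 11. Ccl2 (82035571 to 82037453) measured 1.0, 1.26 and 2.31 FPKM in WT and 0.640, 3.01 and 1.20 FPKM in Mut columns 0, 1 and 2. The highest and the lowest value are both in the Mut group, 4.70-fold apart. The log2 fold change was -0.02 (95% interval -0.96 to 0.92, limma adjusted p = 0.99), a wide interval on either side of 0. Ccl7 (82045712 to 82047525) measured 0.0706, 0.626 and 0.659 FPKM in WT and 0.366, 1.15 and 0.437 FPKM in Mut columns. In both genes Mut column 1 was the highest library and column 0 the lowest of its group. Without the minimum the log2 fold change of Ccl7 was 0.18 (95% interval -0.44 to 0.81, limma adjusted p = 0.74). Ccr2, the main receptor of both on monocytes, was at 0.445 to 0.957 FPKM in WT and at 0, 0.0152 and 0.0187 FPKM in Mut columns.

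**Figure D4:**
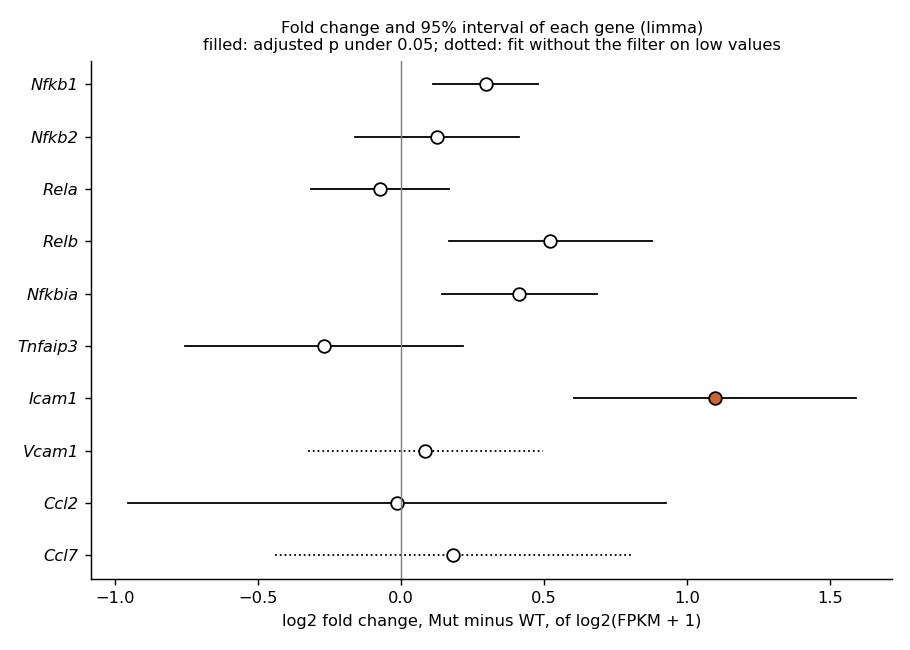
Log2 fold change of each gene, Mut minus WT, of log2(FPKM + 1) (x axis), with 95% intervals from limma. Icam1 is the filled point, the member with an adjusted p under 0.05, and intervals of Nfkb1, Relb and Nfkbia also lie above 0 before adjustment. Dotted lines (Vcam1, Ccl7) come from the fit without the filter on low values.

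By level, the 10 genes fell into a similar order in both groups except for Icam1. In WT the order of mean FPKM was Nfkb1, Nfkbia, Rela, Nfkb2, Relb, Tnfaip3, Ccl2, Icam1, Ccl7 and Vcam1. Library ranges of neighbours were apart after Nfkbia, after Rela, after Nfkb2 and after Icam1, and overlapped elsewhere. In Mut the order was Nfkbia, Nfkb1, Rela, Icam1, Nfkb2, Relb, Ccl2, Tnfaip3, Ccl7 and Vcam1, with ranges apart after Nfkb1 and after Rela. Icam1 was at rank 8 in WT, with 1.46 FPKM, and at rank 4 in Mut, with 4.35 FPKM, where its range overlapped that of Nfkb2. Gene models on the opposite strand overlap Icam1 (511 bases), Vcam1 (1238 bases), Nfkb2 (1292 and 299 bases) and the whole of Ccl2. The library kit keeps strand, but whether counting used it is not given in the sources used here, and without that such reads cannot be told apart. On the same strand, the gene model Gm43430 overlaps Nfkb1 by 3897 bases, and strand does not separate their reads. Gm43430 was at 0.328 to 0.681 FPKM over the libraries.

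Around these members, 59 further genes of the pathway were tested, of which 5 rose and 0 fell in limma, beside 3.48% and 2.59% of all genes tested. At an unadjusted p under 0.05, 16 were higher and 5 lower, beside 12.7% and 12.0% of all genes. Their median log2 fold change was 0.14. Of 9 tested subunits, inhibitors and kinases none passed in limma. Without adjustment, 2 were higher and 1 lower at p under 0.05, beside the same 12.7% and 12.0% of all genes tested. The most abundant were Chuk, the kinase IKK-alpha, at 22.8 ± 2.05 FPKM in WT and 20.8 ± 1.07 in Mut, and Tbk1, a related kinase, at 11.3 ± 0.942 and 13.3 ± 0.467 FPKM (SD, n = 3; limma adjusted p = 0.44 and 0.16). Map3k14, the kinase that starts the non-canonical arm in which Relb acts, measured 1.10 ± 0.0993 and 1.70 ± 0.214 FPKM (limma adjusted p = 0.18), with groups that did not overlap. Ikbke, a relative of Tbk1, was lower in every Mut library than in any WT library, at 2.49 ± 0.347 FPKM in WT and 1.51 ± 0.191 in Mut (SD, n = 3; limma adjusted p = 0.099). Nfkbiz, a nuclear IkappaB protein, was at 12.3 FPKM in Mut column 0 alone and at 2.24 to 4.11 FPKM in the other 5 libraries.

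Of 25 tested receptors and adaptors 2 rose, 0 fell and 23 did not pass. Without adjustment, 6 were higher and 3 lower at p under 0.05, beside 12.7% and 12.0% of all genes tested. Groups did not overlap in 7 that were higher and 5 that were lower, beside 16.3% and 15.9% of all genes tested. Tnfrsf1a, the main tumor necrosis factor receptor, measured 22.9, 27.1 and 22.3 FPKM in WT and 33.5, 36.1 and 40.1 FPKM in Mut columns 0, 1 and 2. It rose by 0.58 in log2 (SE 0.106, limma adjusted p = 0.040). Tlr2, a Toll-like receptor, measured 2.53, 2.93 and 2.57 FPKM in WT and 4.65, 3.87 and 4.88 FPKM in Mut columns, and rose by 0.57 (SE 0.108, limma adjusted p = 0.042). Neither passed when any 1 of the 6 libraries was left out (adjusted p 0.051 to 0.13 for Tnfrsf1a and 0.062 to 0.14 for Tlr2). Tlr4 measured 1.96 ± 0.432 and 3.86 ± 0.760 FPKM and Ltbr, the lymphotoxin receptor, 27.1 ± 1.77 and 33.3 ± 2.75 FPKM (SD, n = 3; limma adjusted p = 0.073 and 0.12). Tab2, an adaptor of the kinase TAK1 and the most abundant of the list, was at 43.7 ± 0.530 and 47.2 ± 0.870 FPKM (limma adjusted p = 0.29). On the lower side, Traf2, an adaptor of tumor necrosis factor receptors, measured 10.9 ± 0.663 FPKM in WT and 8.95 ± 0.245 in Mut (SD, n = 3; limma adjusted p = 0.094). Birc2, a ubiquitin ligase of the same complex, measured 20.9 ± 2.06 and 17.8 ± 0.471 FPKM, and Tradd, a receptor adaptor, 5.65 ± 0.394 and 4.78 ± 0.248 FPKM (SD, n = 3; limma adjusted p = 0.18 and 0.19). The list median was 0.03.

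Of 19 tested classical targets other than the members 3 rose, 0 fell and 16 did not pass, with a list median of 0.36 (3.48% of all genes tested rose and 2.59% fell). At an unadjusted p under 0.05, 8 were higher and 1 lower, beside 12.7% and 12.0% of all genes. The lower one was Lcn2, an iron-binding acute-phase protein, at 2.60 ± 0.798 FPKM in WT and 1.11 ± 0.530 in Mut (SD, n = 3; limma adjusted p = 0.14). Summed granulocyte markers were also lower in Mut (74.0 to 210 FPKM in WT and 1.07 to 7.04 FPKM in Mut). The part of granulocytes in the level of Lcn2 was not tested. Ptgs2, the inducible cyclooxygenase, measured 3.57 to 5.70 FPKM in WT and 16.6 FPKM or more in every Mut library (limma adjusted p = 0.0084). The matrix-degrading enzyme Mmp3 was at 0.704, 0.691 and 0.452 FPKM in WT and 6.41, 5.31 and 3.09 FPKM in Mut columns (limma adjusted p = 0.019). Cebpd, a transcription factor of the acute response, was at 2.39, 2.70 and 2.48 FPKM in WT and 5.78, 4.23 and 4.14 FPKM in Mut columns (limma adjusted p = 0.044). Ptgs2 passed whichever library was left out. Mmp3 did not pass without WT column 0, 1 or 2 or Mut column 1 (adjusted p 0.064 to 0.076), and Cebpd not without WT column 0, 1 or 2 or Mut column 1 or 2 (adjusted p 0.091 to 0.14). Groups did not overlap in 8 of the 19 with Mut higher and in 1 with Mut lower, beside 16.3% and 15.9% of all genes tested. Among the 8 were 2 chemokines of the CXC class that did not pass. Cxcl1 was at 0.518 ± 0.305 and 2.23 ± 0.832 FPKM and Cxcl12 at 2.19 ± 0.889 and 7.54 ± 3.34 FPKM (SD, n = 3; limma adjusted p = 0.077 and 0.065). The targets with the highest levels did not pass, Mmp13 at 68.0 ± 31.1 and 93.3 ± 46.7 FPKM and Gadd45b, a stress-response gene, at 32.2 ± 4.99 and 40.6 ± 1.96 FPKM (limma adjusted p = 0.63 and 0.17).

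**Figure D5:**
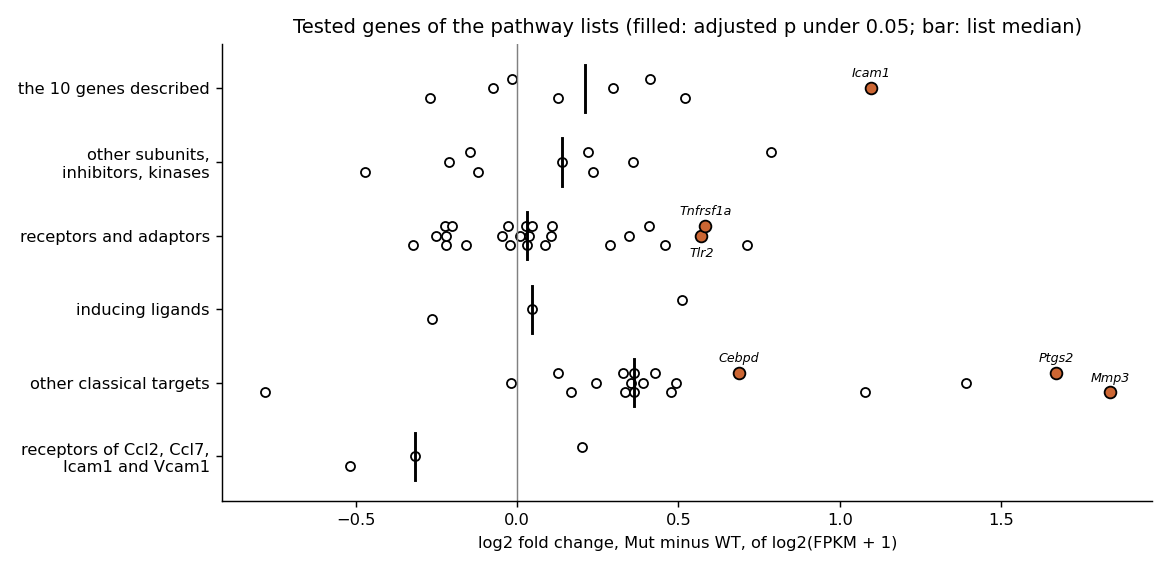
Log2 fold change of every tested gene of 6 lists (x axis, Mut minus WT, of log2(FPKM + 1)), 1 point a gene, with the list median as a bar. Filled points (Icam1, Tnfrsf1a, Tlr2, Ptgs2, Mmp3 and Cebpd) have a limma adjusted p under 0.05, and all 6 lie above 0.

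Of 9 listed ligands that start the pathway, only 3 reached the minimum for testing. None of the 3 passed in limma, with 0 at an unadjusted p under 0.05. Il18 was the most abundant, at 5.56 ± 0.395 FPKM in WT and 4.50 ± 0.950 in Mut, followed by Tnfsf12 (TWEAK) at 3.22 ± 0.710 and 3.34 ± 0.50 FPKM (SD, n = 3; limma adjusted p = 0.30 and 0.89). Tnfsf11, the third one tested, was at 0.916 ± 0.279 FPKM in WT and 1.79 ± 0.838 in Mut (SD, n = 3, limma adjusted p = 0.30), with overlapping groups. Tnf was at 0.235, 0.230 and 0.443 FPKM in WT and at 0.0867, 0 and 0.167 FPKM in Mut columns. Il1b, the interleukin-1 gene expressed mostly by myeloid cells, was at 1.06, 0.610 and 1.54 FPKM in WT and was listed at 0 in all 3 Mut libraries. The granulocyte marker S100a9 fell from 67.0 ± 34.7 to 1.47 ± 1.24 FPKM (SD, n = 3; limma adjusted p = 0.0090), whichever library was left out, and the part of granulocytes in the ligand levels was not tested.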

How the data were processed

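The 10 members and the other gene lists were chosen with earlier results of these data known. The authors deposited 1 table of FPKM values with 6 library columns. Per the submitters' processing notes, the tools included Cuffdiff, Cufflinks and STAR, on mm10; the labels' protocols name CLC Genomics Workbench for libraries depleted of ribosomal RNA and read as 50 bases from 1 end. Versions and any scaling between libraries are not given in the sources used here. Columns were assigned by name. Column 2 of either group had no sample with its number in the labels, whose numbers skip from 1 to 3. It was matched to its group only, and the other 4 columns matched 1 sample each. The labels do not tie libraries to embryos, so p-values measure the spread between libraries, which may be technical. Read counts were not analysed here, and no counting intervals are given.

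The groups were compared in R 4.3.3 by limma 3.58.1 (eBayes with trend) on log2(FPKM + 1), leaving out genes that averaged under 1 FPKM, two-sided, with Benjamini-Hochberg adjustment over all 14012 genes tested. The fit was tested on simulated data. An exact permutation test of 3 libraries against 3 cannot give a p under 0.1, so none was run. Coordinates come from GENCODE M21 (mm10). Genes named were the 10 members, Cops5, list members that passed without overlap, the 2 highest of each list and the 3 nearest to Icam1, and some of these are left out. Other genes were named after their values were seen. Alternatives were other pseudocounts (0.1 or 0.5), no minimum or 5 FPKM, median-of-ratios and quantile scaling, a robust prior, library weights, leaving out each library, a replicate block and a Y-linked covariate.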

Additional observations from a re-analysis of the deposited data

How the results depend on the processing

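The 16 alternatives bore on significance more than on direction. Genes changed numbered 850, and 461 without the filter, 1488 with library weights, 236 with the Y-linked covariate and 174 to 666 with 1 library left out. Members that rose numbered 1, but 0 without the filter, 0 with a minimum of 5 FPKM (which leaves Icam1 untested), 0 with the Y-linked covariate, 2 with library weights (Nfkb1, adjusted p = 0.040, joined Icam1) and 0 to 1 with 1 library left out. Other pathway genes changed numbered 5, and 2 without the filter, 2 with a minimum of 5 FPKM, 0 with the Y-linked covariate and 1 to 3 with 1 library left out. With the replicate block by column number, 60 genes, 0 members and 0 other pathway genes changed. Same-numbered columns deviated from their group means with correlations of -0.033, -0.042 and -0.023, and nothing in the labels ties them, so the block is given only here. Direction was followed for the members other than Vcam1 and Ccl7, for Cops5 and for some of the other named genes, not for all genes. Among those followed, log2 fold changes that turned sign were all of genes that did not pass. They were Rela (0.0073 with the covariate, -0.14 to 0.013 with 1 library left out, above 0 without WT column 1), Ccl2 (0.021 with quantile scaling, 0.078 with weights, -0.37 to 0.27 with 1 library left out, above 0 without WT column 2, Mut column 0 or Mut column 2), Tnfsf12 (-0.15 with the covariate, -0.065 to 0.17 with 1 library left out, below 0 without WT column 0 or Mut column 2), Chuk (0.074 with the covariate) and Mmp13 (-1.30 with the covariate). The cause was not tested. Over all alternatives run, Nfkb1 ranged from 0.15 to 0.33, Relb from 0.40 to 0.70, Nfkbia from 0.30 to 0.50 and Icam1 from 0.17 to 1.48, without a change of sign. Values under 1 FPKM (Vcam1, Ccl7) carry few reads, and their number is unknown.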

Other observations

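Several inflammatory genes under the minimum for testing are given here as values only. Cxcl10, a chemokine induced by interferon, was at 0.201, 0.287 and 0.215 FPKM in WT and 1.90, 0.606 and 1.53 FPKM in Mut columns 0, 1 and 2, so that every Mut library was above every WT library. C3, the central complement component, was at 0.668, 0.669 and 1.18 FPKM in WT and 0.131, 0.194 and 0.193 FPKM in Mut columns, the other way round. Nos2, the inducible nitric oxide synthase, was at 0.0937, 0.122 and 0.0535 FPKM in WT and 0.0199, 0.0208 and 0.00947 FPKM in Mut columns. Il6 overlapped between groups at 0.139 to 0.279 FPKM in WT and 0.0172 to 0.278 FPKM in Mut libraries.

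Among the counterreceptors, Itgal, the leukocyte integrin chain that binds the product of Icam1, was at 0.267, 0.283 and 0.716 FPKM in WT and 0.0566, 0.0161 and 0.0539 FPKM in Mut columns. Itga4, the chain that binds the product of Vcam1, was at 0.344 to 0.687 FPKM in WT and 0.142 to 0.203 FPKM in Mut libraries. Ccr1 was at 1.52 ± 0.522 and 1.13 ± 0.983 FPKM (SD, n = 3; limma adjusted p = 0.62), and the broadly expressed chain Itgb1 at 149 ± 12.3 and 171 ± 12.4 FPKM (limma adjusted p = 0.26). Over the 10 tested macrophage and pan-leukocyte markers the median log2 fold change was -0.52, but they did not all lie one way. At an unadjusted p under 0.05, 1 was higher and 2 lower, beside 12.7% and 12.0% of all genes tested. Ptprc, a pan-leukocyte marker, was at 1.51, 1.37 and 2.76 FPKM in WT and 0.227, 0.266 and 0.626 FPKM in Mut columns (limma adjusted p = 0.069). Lyz2 was at 26.4, 21.4 and 45.6 FPKM in WT and 3.48, 7.45 and 11.8 FPKM in Mut columns (limma adjusted p = 0.064), while Cd14 was at 1.69 to 2.23 FPKM in WT and 2.75 to 6.11 FPKM in Mut libraries (limma adjusted p = 0.12).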
